A study of Mus musculus with 6 samples.

Results

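The proteasome genes of TuBo cells were compared between p140Cap and mock cells. They were the 48 of the 21960 genes counted whose symbols start with Psma, Psmb, Psmc, Psmd, Psme, Psmf or Psmg. The interferon-induced Psmb8 and Psmb9 and pseudogene symbols were left out. TuBo is a mammary carcinoma line from a BALB/c mouse that carries the activated rat HER2 oncogene under the MMTV promoter, and this transgene is shared by both groups. The p140Cap group (3 libraries, genotype label overexpressing p140Cap) had received a retroviral p140Cap cDNA in pBabe-puro, was selected with puromycin, and was a pool of clones isolated from single cells. The mock group (3 libraries, genotype label wt) was the control, and the vector and selection of these cells are not described in the sources used here. The labels describe cell lines in one field and mice in another, and the samples were read here as cultured TuBo cells. Whether the libraries of a group came from separate cultures is not stated, so the p-values measure the spread between these libraries, which may be technical.

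The 26S proteasome is the protease that degrades proteins tagged with ubiquitin. Its 20S core is a barrel of stacked rings, with structural alpha subunits outside and beta subunits inside, and only the beta subunits Psmb5, Psmb6 and Psmb7 carry active sites. The 19S cap recognises the ubiquitin chain, removes it and unfolds the substrate with a ring of ATPases. One subunit of each kind goes into each ring or cap, so the genes are usually expressed together, and β-Catenin marked by its destruction complex is a well-known substrate. Interferon can exchange the active subunits for Psmb8, Psmb9 and Psmb10, and the caps PA28 and PA200 open the core without ubiquitin.

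Libraries held 13770385 to 75506562 reads on genes, and every mock library was deeper than every p140Cap library. Srcin1, which encodes p140Cap, had 509 to 1192 reads in the mock and 30546 to 36989 reads in the p140Cap libraries, which matched the labels. Levels are given as CPM, the reads of a gene scaled to the total of its library after TMM adjustment, and changes as the log2 of p140Cap over mock. The epithelial markers Krt8, Krt18, Epcam, Cdh1 and Erbb2 lay between 565 and 1968 CPM on average, and together were at 5245 to 5570 CPM in mock and 6183 to 6339 CPM in p140Cap libraries. Of 9 markers of fibroblasts, leukocytes and endothelium, 3 (Col3a1, Ptprc and Cd3e) had no read in any library. All 9 together summed to between 12.3 and 12.9 CPM in mock and between 16.02 and 18.7 CPM in p140Cap libraries. Of these, Col1a1, Cd68 and Pecam1 were called higher (edgeR, adjusted p under 0.05), and Pdgfra was not called. Among the epithelial markers, Krt18, Epcam and Cdh1 were called higher, and Krt8 and Erbb2 were not called. For comparison, 35.2% of all genes tested were called higher. The part of these markers in the results was not tested. In such bulk RNA, fewer cells of a kind and less RNA per cell cannot be told apart.

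Of the 48 proteasome genes, 46 had enough reads for the test, and 38 of these were lower and 1 was higher in p140Cap cells by the quasi-likelihood test of edgeR (Benjamini-Hochberg adjusted p under 0.05 over all genes). Among all 11800 genes tested, 71.1% were called, 35.9% lower and 35.2% higher. The share of proteasome genes called lower was 82.6%, and their median log2 change was -0.35, while the median over all genes tested was 0.00. The 3 p140Cap libraries were all below the 3 mock libraries for 41 of the 46 genes, compared with 37.2% of all genes tested. The 7 genes without a call were Psmb1, Psmd8, Psmd10, Psmg4, Psme2, Psmf1 and Psme2b, and the single gene called higher was Psme1. With every library thinned to the total of the smallest, 37 of the 46 were lower and 1 was higher, with a median log2 change of -0.36.

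**Figure D1:**
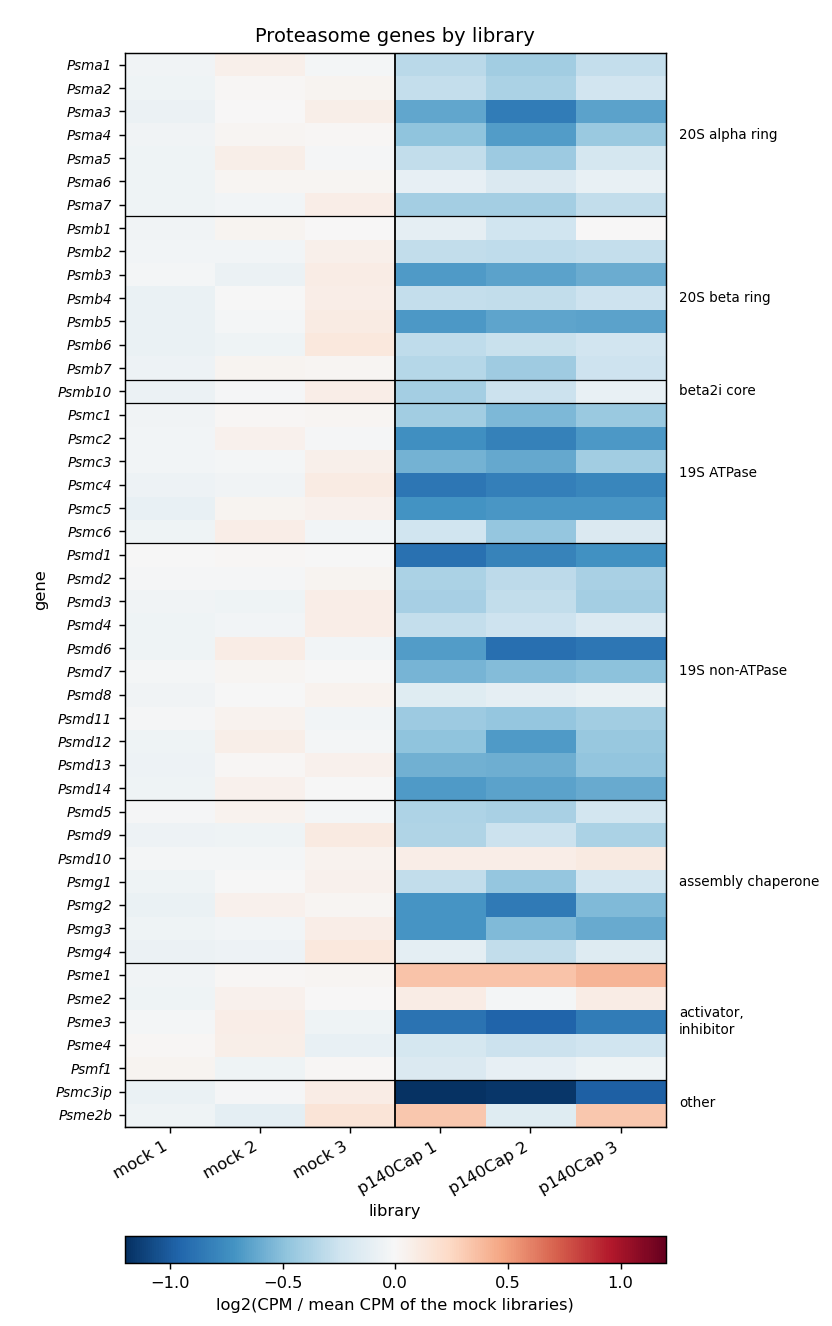
Level of each of the 46 tested proteasome genes (rows, grouped by role) in each library (columns), as the log2 of its CPM over the mean CPM of the mock libraries. The p140Cap columns are below the mock columns for all but a few rows, with Psme1 the main row in the other direction and Psmc3ip the lowest, at 6.46, 6.54 and 7.42 CPM against 14.7 CPM in mock cells.

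The 31 genes of the standard 26S proteasome in these families had negative log2 changes without exception, and 29 of the 31 fell at an adjusted p under 0.05 (edgeR). Their log2 changes lay between -0.82 and -0.11, with a median of -0.44. In 14 of them the decrease was at least 0.5 log2 units, in another 14 it was between 0.2 and 0.5, and in 3 (Psma6, Psmb1 and Psmd8) it was smaller than 0.2. These 31 genes together took 0.601%, 0.627% and 0.630% of all reads in the mock libraries, and 0.447%, 0.434% and 0.464% in the p140Cap libraries. The groups did not overlap in this share, which uses no normalization beyond the total of each library. After normalization their levels summed to 6113 ± 168 CPM in the mock and 4543 ± 144 CPM in the p140Cap libraries (SD, n = 3 each), a ratio of 0.743.

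All 7 alpha ring genes, which form the gate of the core, were lower in p140Cap cells (edgeR, adjusted p under 0.05), with a median log2 change of -0.34. Psma3 (chromosome 12 of GRCm38.p6, 70969283 to 70995877), the alpha7 subunit, was at 150.3, 158 and 166 CPM in the mock libraries and 103, 88.5 and 101 CPM in the p140Cap libraries. Its groups were far apart, with a log2 change of -0.70 ± 0.06 (SE, edgeR adjusted p = 2.05e-08). Psma4 had the next largest decrease of the ring, -0.53 (SE 0.06). Psma1, Psma2, Psma5 and Psma7 lay close together, between -0.37 and -0.30.

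Psma6, the alpha1 subunit, was at the other end of the ring. It was at 211, 222 and 223 CPM in the mock libraries and 204, 194 and 206 CPM in the p140Cap libraries, so the groups were separated by a narrow gap. Its log2 change was -0.12 ± 0.05 (SE, edgeR adjusted p = 0.0362). This call was lost under 6 of the 15 alternatives, which were thinned libraries (adjusted p = 0.0594, edgeR), the replicate block (adjusted p = 0.0702, edgeR), and leaving out mock replicate 2 or 3 or p140Cap replicate 1 or 2. With those libraries left out the log2 change lay between -0.13 and -0.09, and over all alternatives its adjusted p lay between 0.00857 and 0.0994 (edgeR, limma or DESeq2).

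Of the 7 beta ring genes, 6 were lower in p140Cap cells, with a median log2 change of -0.30 over the ring. Psmb5 (chromosome 14, 54614120 to 54617995) makes the chymotrypsin-like active site, the main target of proteasome inhibitors. It was at 101, 104 and 113 CPM in the mock libraries and 65.8, 68.5 and 67.8 CPM in the p140Cap libraries, with no overlap. Its log2 change was -0.65 ± 0.05 (SE, edgeR adjusted p = 1.78e-08).

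The other active-site genes were lower as well, with smaller fitted changes. Psmb6 (chromosome 11, 70525324 to 70527858), the caspase-like subunit, was at 154, 157 and 177 CPM in mock and 132, 135 and 138 CPM in p140Cap libraries, a log2 change of -0.27 ± 0.06 (SE, edgeR adjusted p = 0.000416). Psmb7 (chromosome 2, 38588046 to 38643952), the trypsin-like subunit, was at 246, 262 and 261 CPM in mock and 203, 190.4 and 216 CPM in p140Cap libraries, a log2 change of -0.34 ± 0.05 (SE, edgeR adjusted p = 2.69e-05). All p140Cap values of both genes were below all mock values. The difference between the decreases of the 3 active-site genes was not tested.

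Among the non-catalytic beta subunits, Psmb3 had the largest decrease, from 143 ± 8.18 CPM in mock to 91.7 ± 2.82 CPM in p140Cap cells (SD, n = 3 each), a log2 change of -0.64 ± 0.05 (SE). Psmb2 and Psmb4 were at -0.30 and -0.28. Psmb1, the beta6 subunit, was the one gene of the ring without a call. It was at 225, 238 and 233 CPM in mock and 216, 197 and 233 CPM in p140Cap libraries, so that p140Cap replicate 3 lay within the mock range. Its log2 change was -0.11 ± 0.06 (SE, edgeR adjusted p = 0.0966), and it depended on single libraries. Without p140Cap replicate 3 it was -0.17 and called (adjusted p = 0.0203, edgeR), and without p140Cap replicate 2 it was -0.05 and not called (adjusted p = 0.394, edgeR).

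**Figure D2:**
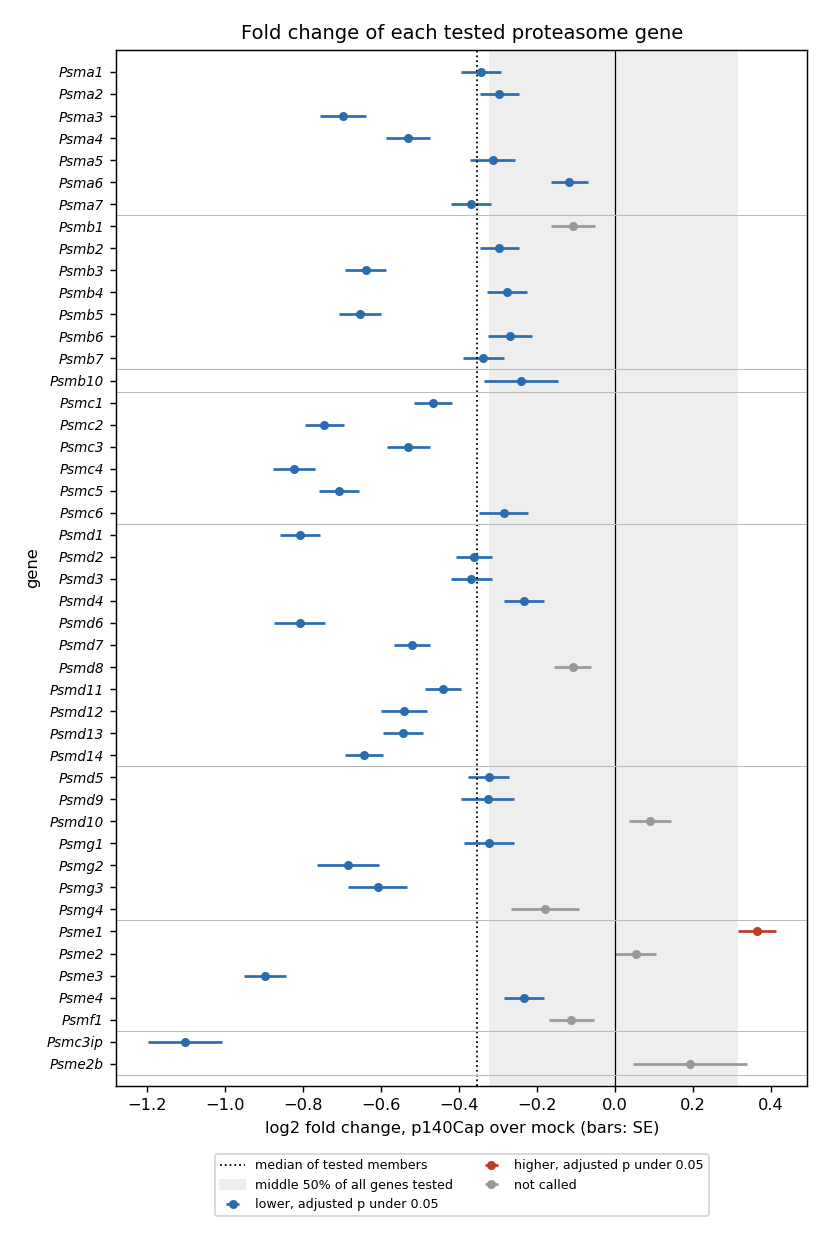
Log2 fold change of p140Cap over mock for each of the 46 tested proteasome genes, grouped by role in the order of the plot of levels by library, with bars for the SE of the edgeR fit, a dotted line at the median of these genes (-0.35) and a grey band for the middle 50% of all genes tested (-0.32 to 0.31). The 19S genes reach furthest to the left among the 26S subunits, and only Psme1 is called to the right of 0.

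The decreases of the 19S cap were larger in the median than those of the core, a difference that was not tested. Over its 17 genes the median log2 change was -0.53, compared with -0.33 over the 14 genes of the 20S. All 17 had p140Cap libraries below the mock libraries, and 16 were called. The summed CPM of the 19S genes was 1.27, 1.25 and 1.24 times that of the 20S genes in the mock libraries, and 1.11, 1.16 and 1.10 times in the p140Cap libraries. The groups did not overlap in this ratio, which is a description of the genes chosen and has no test.

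The 6 ATPase genes Psmc1 to Psmc6, which form the ring that unfolds the substrate, were all lower in p140Cap cells, with a median log2 change of -0.62. In that order they encode the subunits Rpt2, Rpt1, Rpt5, Rpt3, Rpt6 and Rpt4. Psmc4 (Rpt3; chromosome 7, 28041702 to 28050092) had the largest decrease of the 26S subunits. It was at 149.9, 151 and 167 CPM in the mock libraries and 85.4, 88.5 and 90.5 CPM in the p140Cap libraries. Every p140Cap value was far below every mock value, at a log2 change of -0.82 ± 0.05 (SE, edgeR adjusted p = 8.76e-10), and under all 15 alternatives it lay between -0.86 and -0.78. Psmc2 (-0.74) and Psmc5 (-0.71) were close to it, Psmc3 was at -0.53 and Psmc1 at -0.47. Psmc6 had the smallest decrease of this ring, from 132 ± 6.37 CPM to 109 ± 11.1 CPM (SD, n = 3 each), a log2 change of -0.28 ± 0.06 (SE, edgeR adjusted p = 0.000768).

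Of the 11 non-ATPase genes of the cap, 10 were lower. Psmd1 (Rpn2, a large scaffold of the base; chromosome 1, 86064619 to 86139295) was at 276, 280.1 and 276 CPM in the mock libraries and 149, 159 and 167 CPM in the p140Cap libraries. The mock values were nearly the same and the p140Cap values stood well apart, with a log2 change of -0.81 ± 0.05 (SE, edgeR adjusted p = 5.13e-10). Psmd6 (Rpn7, a lid subunit; chromosome 14, 14112185 to 14120945) was at 65.5, 72.2 and 66.4 CPM in mock and 42.8, 36.4 and 37.3 CPM in p140Cap libraries, with a fitted log2 change of -0.81 ± 0.07 (SE, edgeR adjusted p = 1.13e-08), close to that of Psmd1. Annotated genes share the strand of Psmd1, so its reads are less certain than those of Psmd6. Psma2 and Psmg3 also share a strand with an annotated protein-coding gene, Psmd2 and Psmd13 with a processed pseudogene, and Psmd12 with a long noncoding RNA. Annotated small RNA or rRNA genes lie on the strand of Psmb5, Psmb7, Psmc5 and Psmd14. Whether counting used strand is not known, and protein-coding genes overlap some members on the opposite strand. In the core and cap, these are Psma4, Psma7, Psmb4, Psmb7, Psmc2, Psmc3, Psmc5, Psmd1 and Psmd13. Outside them, they are Psmd5, Psmd9, Psmd10, Psmg2, Psme1, Psme2, Psmf1 and Psmc3ip.

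Psmd14 (Rpn11), the enzyme that cuts ubiquitin chains off the substrate, went from 173 ± 6.22 CPM to 111 ± 2.96 CPM (SD, n = 3 each), a log2 change of -0.64 ± 0.05 (SE, edgeR adjusted p = 4.88e-09). Its partner in the lid, Psmd7 (Rpn8), was at -0.52, and Psmd11, Psmd12 and Psmd13 lay between -0.54 and -0.44. Psmd2 (Rpn1), a docking site for shuttle factors, was at 522 ± 9.57 CPM in mock and 406 ± 11.5 CPM in p140Cap cells (SD, n = 3 each), a log2 change of -0.36. The ubiquitin receptor Psmd4 (Rpn10) was at 163, 165 and 178 CPM in mock and 138, 141 and 150.5 CPM in p140Cap libraries. These groups were closer but apart, at a log2 change of -0.23 ± 0.05 (SE, edgeR adjusted p = 0.000728).

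Psmd8 (Rpn12), the last subunit to join the lid, was the gene of the cap without a call. It was at 111, 114 and 118 CPM in the mock libraries and 103, 106 and 108 CPM in the p140Cap libraries. The groups did not overlap, and the log2 change of -0.11 ± 0.05 (SE) had an adjusted p of 0.0507 (edgeR). Under 5 of the 15 alternatives it was called, and its adjusted p lay between 0.0118 and 0.178 over all of them (edgeR, limma or DESeq2).

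Psmd3 (Rpn3; chromosome 11, 98682554 to 98695978) lies 4205 bases from Csf3, the gene of G-CSF on which the study centres. Csf3 was taken as a neighbour after its values were known. Psmd3 was at 253, 251 and 275 CPM in mock and 197, 212 and 195 CPM in p140Cap libraries, a log2 change of -0.37 ± 0.05 (SE, edgeR adjusted p = 8.95e-06). Csf3 went from 74.5 ± 3.17 to 35.9 ± 0.686 CPM (SD, n = 3 each), a log2 change of -1.05. Both genes were lower, and the change of Psmd3 was near the middle of the 26S subunits.

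**Figure D3:**
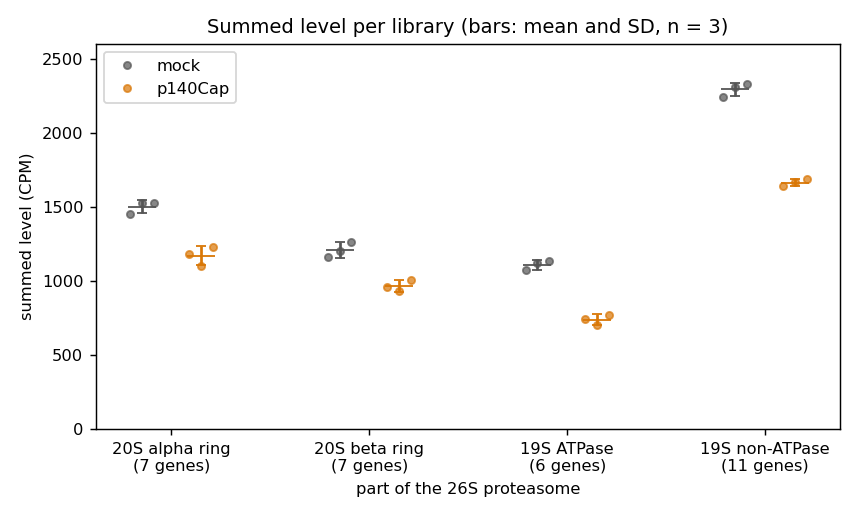
Summed CPM of the genes of each part of the 26S proteasome in each library (points), with mean and SD bars (n = 3), for mock and p140Cap cells. The p140Cap points lie below the mock points in all 4 parts, with ratios of the means of 0.780 for the alpha ring, 0.800 for the beta ring, 0.668 for the ATPases and 0.726 for the non-ATPase subunits.

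The libraries of a group also differed among themselves. Mock replicate 1 had the lowest level of the 3 mock libraries in 26 of the 31 genes, and p140Cap replicate 2 the lowest of its group in 18. p140Cap replicate 3 was the highest of its group in 25. Within the p140Cap group, replicate 2 was the lowest in 6 of 7 alpha ring genes, 4 of 7 beta ring genes, 4 of 6 ATPase genes and 4 of 11 non-ATPase genes. The same counts over all genes were not taken, so these are not shown to be particular to the proteasome. These differences were small beside that between the groups, whose summed levels were 5926 to 6250 CPM in mock and 4408 to 4695 CPM in p140Cap libraries.

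The 46 tested genes lay on 16 chromosomes, and those of the 26S subunits on 14, so that the decreases were not in one stretch of the genome. Chromosome 11 held the most, 10 genes, of which 9 were lower, among them Psmc3ip, which is no part of the proteasome. The share called lower was 82.6% of the 46 genes and 35.9% of all genes tested.

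The levels of single subunits were set side by side per length, as CPM per kilobase of annotated exon. The ratios of CPM between genes given elsewhere are not per length, and serve to compare libraries, not genes. Over the 31 subunits this level in mock cells ran from 7.10 for Psmb2 to 114 for Psma5, with a median of 43.6. In p140Cap cells the same genes were at the ends, at 5.78 and 92.1, with a median of 32.5. Psmb2 stayed lowest with the longest or the canonical transcript as length. The highest place went to Psma7 in mock cells with the canonical transcript, and to Psma6 in p140Cap cells with either. The order at the top thus depended on the length used.

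Promoters of 40 of the 48 genes were found in the RefSeq table (GRCm38.p6, 250 bases before to 50 bases after the start of the gene). For Psma8, Psmb1, Psmb2, Psmb7, Psmc3, Psmd3, Psmd7 and Psmg2 none was used. Both strands were searched for TGANNNNGC, the core of the antioxidant response element bound by Nfe2l1 and Nfe2l2, for TGACTCAGC, which is one fully spelled case of that pattern, for CCAAT and for the GC box GGGCGG. TGANNNNGC stood in 22 of the 40 (55.0%), in 45.0% of all genes of the table and in 47.7% of those tested. TGACTCAGC stood in none of the 40, and in 0.503% of all genes. CCAAT stood in 35.0% of the 40 and in 41.1% of all genes, and GGGCGG in 55.0% and 38.2%, while 70.0% of the promoters of tested genes held it. The promoters of the 3 most reduced 26S subunit genes are shown because their decreases were the largest of the 26S subunits. Capitals mark GGGCGG as well as CCAAT and TGANNNNGC on either strand. Those of Psmc4 (chr7:28050043-28050342, minus strand), Psmd6 (chr14:14120896-14121195, minus strand) and Psmd1 (chr1:86064369-86064668, plus strand) read as follows, 5′ to 3′ along the gene.
Psmc4: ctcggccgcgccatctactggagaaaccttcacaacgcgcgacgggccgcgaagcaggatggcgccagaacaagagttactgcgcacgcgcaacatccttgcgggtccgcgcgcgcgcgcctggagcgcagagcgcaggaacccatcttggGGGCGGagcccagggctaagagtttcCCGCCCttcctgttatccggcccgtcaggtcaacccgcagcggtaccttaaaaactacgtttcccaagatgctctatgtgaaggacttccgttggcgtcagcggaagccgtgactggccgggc
Psmd6: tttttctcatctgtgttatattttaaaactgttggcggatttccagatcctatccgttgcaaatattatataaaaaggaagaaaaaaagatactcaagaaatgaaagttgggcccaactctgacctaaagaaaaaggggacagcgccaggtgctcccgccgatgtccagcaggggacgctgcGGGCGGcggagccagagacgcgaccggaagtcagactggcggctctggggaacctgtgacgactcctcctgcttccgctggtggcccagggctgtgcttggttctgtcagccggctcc
Psmd1: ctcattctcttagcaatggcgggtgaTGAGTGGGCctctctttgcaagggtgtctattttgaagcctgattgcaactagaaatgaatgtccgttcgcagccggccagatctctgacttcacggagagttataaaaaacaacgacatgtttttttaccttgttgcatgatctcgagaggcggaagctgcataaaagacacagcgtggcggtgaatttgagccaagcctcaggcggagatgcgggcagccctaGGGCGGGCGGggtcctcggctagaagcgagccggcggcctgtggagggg
All 3 held a GC box, and that of Psmd1 also held TGANNNNGC. A match is a description of letters, not a site shown to be used.

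The assembly factors, which put the rings and caps together and leave the finished particle, were mostly lower as well. Of the 4 chaperones of the alpha ring, Psmg2 (PAC2) fell the most, from 28.1 ± 1.32 CPM to 17.5 ± 1.94 CPM (SD, n = 3 each), a log2 change of -0.68 ± 0.08 (SE, edgeR adjusted p = 7.73e-07). Psmg3 (PAC3) was at -0.61 and Psmg1 (PAC1), which pairs with Psmg2, at -0.32. Psmg4 (PAC4), the partner of Psmg3, was at 13.4, 13.5 and 15.3 CPM in mock and 12.98, 11.4 and 12.6 CPM in p140Cap libraries. These groups did not overlap, but the log2 change of -0.18 ± 0.09 (SE) was not called (adjusted p = 0.0752, edgeR).

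Of the chaperones of the 19S base, Psmd5 (S5b) and Psmd9 (p27) were lower, at log2 changes of -0.32 and -0.33. Psmd10, or gankyrin, which lies on the X chromosome and is also known as an oncoprotein, was without a call. It was at 35.8, 35.7 and 37.4 CPM in mock and 38.4, 38.4 and 39.0 CPM in p140Cap libraries. All p140Cap values were above all mock values by a small margin, and the log2 change of 0.09 ± 0.05 (SE) was not called (adjusted p = 0.147, edgeR).

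The activators moved in different directions. Psme1 (PA28alpha; chromosome 14, 55578494 to 55581527) is a subunit of the cytosolic cap PA28, which interferon raises and which favours the making of peptides for MHC class I. It was at 71.2, 74.0 and 74.2 CPM in the mock libraries and 92.9, 92.8 and 96.7 CPM in the p140Cap libraries. The groups were well apart, with a log2 change of 0.36 ± 0.05 (SE, edgeR adjusted p = 3.5e-06), between 0.33 and 0.39 under all 15 alternatives. Emc9 overlaps it on the opposite strand.

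Psme2 (PA28beta), its partner in the same cap, lies 5913 bases from Psme1. It was at 70.6, 75.8 and 73.8 CPM in mock and 78.2, 72.0 and 78.3 CPM in p140Cap libraries, so the groups overlapped. Its log2 change was 0.05 ± 0.05 (SE, edgeR adjusted p = 0.364), and moved to 0.02 without mock replicate 1, 0.03 without p140Cap replicate 1 or 3, and 0.09 without p140Cap replicate 2. Psme2b, an intronless copy of Psme2, was at 3.69 ± 0.376 CPM and 4.19 ± 0.741 CPM (SD, n = 3 each) and was not called (log2 change 0.19, SE 0.15). Its change was 0.11 without p140Cap replicate 1, 0.12 without p140Cap replicate 3 and 0.33 without p140Cap replicate 2 (adjusted p = 0.0605, edgeR). Reads of Psme2 and Psme2b may be shared between the copies, and annotated genes overlap Psme2b on its strand, so both are uncertain.

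Psme3 (PA28gamma; chromosome 11, 101316213 to 101323537), which forms a nuclear cap of its own and is linked to cell division, went the other way. It was at 119, 127 and 116 CPM in the mock libraries and 65.3, 61.8 and 67.4 CPM in the p140Cap libraries. The groups were far apart, with a log2 change of -0.90 ± 0.05 (SE, edgeR adjusted p = 3.57e-10). The ratio of Psme1 to Psme3 was 0.600, 0.581 and 0.639 in mock and 1.42, 1.5 and 1.44 in p140Cap libraries, a log2 difference of 1.26. An exact two-sided permutation test over the libraries gave p = 0.1, the smallest p that 3 against 3 libraries allow.

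The larger activator Psme4 (PA200), also nuclear, was at 256, 267 and 238 CPM in mock and 219, 212 and 215 CPM in p140Cap libraries. The groups did not overlap, and the log2 change was -0.23 ± 0.05 (SE, edgeR adjusted p = 0.000596). Psmf1 (PI31), first described as an inhibitor of the core, was at 37.0 ± 1.11 CPM and 34.3 ± 1.45 CPM (SD, n = 3 each) and was not called (log2 change -0.11, SE 0.06, adjusted p = 0.0971 from edgeR).

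The promoters of the activators at the opposite ends, Psme1 (chr14:55578244-55578543, plus strand) and Psme3 (chr11:101315963-101316262, plus strand), are shown with the same capitals.
Psme1: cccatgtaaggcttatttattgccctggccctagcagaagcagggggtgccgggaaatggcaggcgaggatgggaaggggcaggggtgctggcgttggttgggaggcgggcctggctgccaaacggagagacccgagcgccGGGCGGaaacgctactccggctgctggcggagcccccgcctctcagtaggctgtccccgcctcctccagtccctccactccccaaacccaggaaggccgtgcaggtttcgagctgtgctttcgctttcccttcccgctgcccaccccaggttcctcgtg
Psme3: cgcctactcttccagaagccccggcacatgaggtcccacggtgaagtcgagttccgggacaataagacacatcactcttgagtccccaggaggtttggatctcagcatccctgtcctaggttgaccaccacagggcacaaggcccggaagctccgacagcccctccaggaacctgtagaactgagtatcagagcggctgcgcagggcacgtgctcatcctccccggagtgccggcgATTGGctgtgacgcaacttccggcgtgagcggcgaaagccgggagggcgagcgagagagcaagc
That of Psme1 held a GC box and that of Psme3 a CCAAT box on the other strand, and neither held TGANNNNGC.

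**Figure D4:**
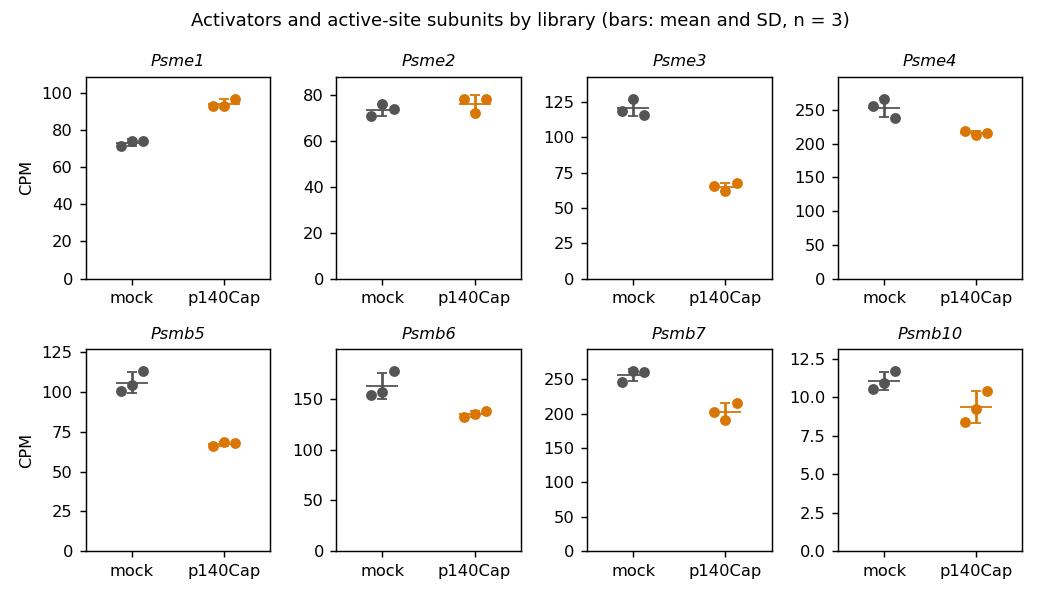
CPM of the activators Psme1 to Psme4 (top) and of the active-site subunits Psmb5, Psmb6, Psmb7 and Psmb10 (bottom) in each library (points), with mean and SD bars (n = 3) and axes from 0. Psme1 is higher in the 3 p140Cap libraries and Psme3 is lower, while all 4 active-site genes are lower.

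Of Psma8, Psmb10 and Psmb11, the members that replace other core subunits in special cells, Psmb10 had enough reads for the test. Psmb10 (beta2i; chromosome 8, 105935728 to 105938392) takes the place of Psmb7 in the immunoproteasome. It was at 10.6, 11.0 and 11.7 CPM in mock and 8.37, 9.26 and 10.4 CPM in p140Cap libraries, so that the groups nearly met. Its log2 change was -0.24 ± 0.09 (SE, edgeR adjusted p = 0.0312). It was not called by DESeq2 (adjusted p = 0.0874), with thinned libraries, or without mock replicate 3 or p140Cap replicate 1 or 2, and without p140Cap replicate 1 its log2 change was -0.17 (adjusted p = 0.176, edgeR). The ratio of Psmb10 to Psmb7 was 0.0430, 0.0418 and 0.0448 in mock and 0.0413, 0.0487 and 0.0483 in p140Cap libraries. The groups overlapped (difference 0.09 on the log2 scale, exact two-sided permutation p = 0.4, where the smallest possible is 0.1). This difference rested on single libraries, at 0.17 without p140Cap replicate 1, 0.05 without p140Cap replicate 2 and 0.05 without p140Cap replicate 3.

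The other immunoproteasome genes, which are not among the 48, were rare. Psmb9 had 33, 21 and 14 reads in mock and 25, 19 and 24 in p140Cap libraries. This gave a level 3.44 times as high in p140Cap cells (95% exact counting interval 2.42 to 4.89). Its log2 change was 1.77 ± 0.26 (SE, edgeR adjusted p = 1.04e-05). Tap1 overlaps Psmb9 on the opposite strand, and whether counting used strand is not known, so these few reads are uncertain. Psmb8, with 35 reads in all, was too low for the test.

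Psma8 and Psmb11, subunits of other tissues, were near or at the limit of detection. Psma8, the alpha4 form of the testis, had 1 read in all, in mock replicate 1. Psmb11, the beta5 form of the thymus, had 7 reads in the mock and 4 in the p140Cap libraries, which was too few for a comparison (95% exact counting interval of the ratio 0.422 to 7.74). Intervals cover counting error only.

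Psmc3ip was chosen by its symbol and is no part of the proteasome. It encodes Hop2, named for its binding to Psmc3, and works in homologous recombination. It had the largest change among the 46 genes, from 13.8, 14.5 and 15.6 CPM in mock to 6.46, 6.54 and 7.42 CPM in p140Cap libraries. The groups were far apart, and the log2 change was -1.10 ± 0.09 (SE, edgeR adjusted p = 2.47e-08). Mlx overlaps it on the opposite strand. Without Psmc3ip and Psme2b, the members are subunits, activators, an inhibitor and assembly factors of the proteasome.

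A list of 26 other genes of the machine and its supply was read beside them. Of these, 25 were tested, and 17 were lower, 3 were higher and 5 were not called (edgeR, adjusted p under 0.05), with a median log2 change of -0.25. The share called lower was 68%, compared with 35.9% of all genes tested, while 71.1% of all genes were called in either direction. The 19S subunits outside the Psm families were lower too. Adrm1 (Rpn13), a ubiquitin receptor, was at 103, 104 and 107 CPM in mock and 60.6, 66.5 and 63.4 CPM in p140Cap libraries, a log2 change of -0.72 ± 0.05 (SE, edgeR adjusted p = 2.54e-09). The deubiquitinase that binds it, Uchl5, was at -0.75 (SE 0.08). Sem1, listed in the counts under its older symbol Shfm1, was at -0.33 (SE 0.06), and the core assembly factor Pomp at -0.26 (SE 0.06).

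Of the 9 genes listed as associated with the proteasome, 6 were lower, 1 was higher and 2 were not called (edgeR, adjusted p under 0.05). The shares over all genes tested were 35.9% lower and 35.2% higher. Vcp, the unfoldase p97, was at -0.38 (SE 0.05), and its cofactors Nploc4 at -0.56 and Ufd1, listed as Ufd1l, at -0.20. Ube3c, Txnl1 and Zfand5 were lower too, at -0.52, -0.35 and -0.16. Zfand2a was higher, at 0.21, and Akirin2 and Ecpas, listed as AI314180, were not called, at 0.02 and -0.02. Of the 6 shuttle factors, which carry substrates to the cap, 5 were lower, with Ubqln4 (-0.50) and Rad23b (-0.41) the furthest. Ddi2 was higher, at 65.2, 61.6 and 57.0 CPM in mock and 82.2, 78.1 and 73.5 CPM in p140Cap libraries, a log2 change of 0.34 ± 0.06 (SE, edgeR adjusted p = 6.82e-05). Ddi2 is also the protease that activates Nfe2l1.

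Nfe2l1, the factor that raises proteasome genes when the proteasome is blocked, was at 322, 318 and 324 CPM in mock and 350.3, 364 and 358 CPM in p140Cap libraries. It was thus higher in each p140Cap library than in each mock library, with a log2 change of 0.15 ± 0.04 (SE, edgeR adjusted p = 0.00571). Counts do not show how much of its protein is active. Nfe2l2 (-0.05, adjusted p = 0.39) and Ngly1 (-0.14, adjusted p = 0.259), an enzyme of Nfe2l1 activation, were not called (edgeR). Rps27a, which encodes ubiquitin fused to a ribosomal protein, was lower (-0.24), and the polyubiquitin gene Ubb was not called, at -0.05.

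**Figure D5:**
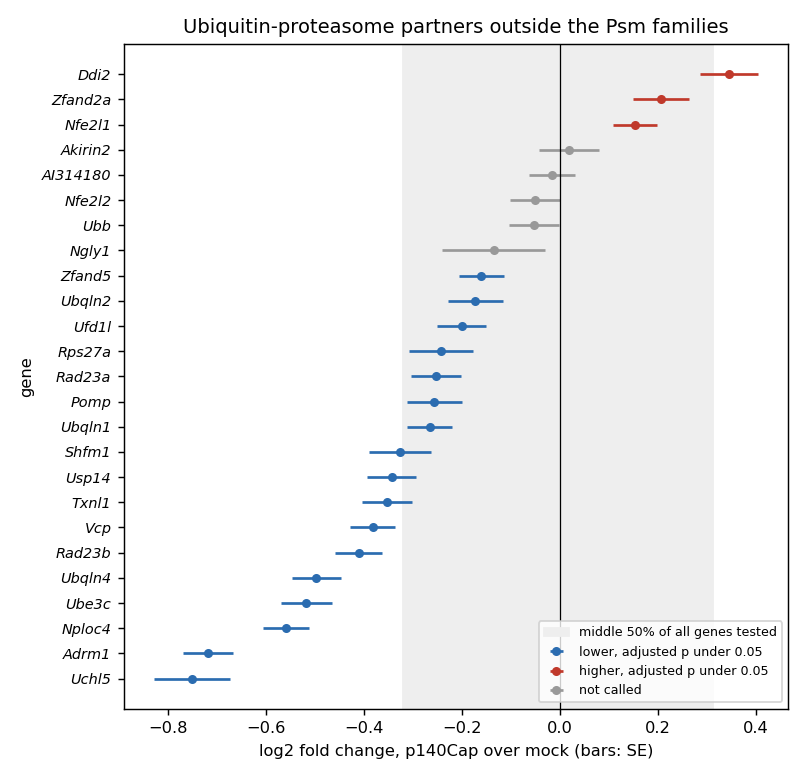
Log2 fold change of p140Cap over mock for the 25 tested genes of the list of partners, in order of size, with bars for the SE of the edgeR fit and a grey band for the middle 50% of all genes tested. Uchl5 and Adrm1 stand at the lower end, and Ddi2, Zfand2a and Nfe2l1 are the genes called higher.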

How the data were processed

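RNA-Seq counts of 3 mock and 3 p140Cap libraries of TuBo cells were analysed. The authors deposited whole-number counts of reads per gene, not normalized, with replicates apart. The submitters' processing notes list STAR 2.5, RSEM and the build mm10, without roles, while the paper names docker4seq tools and, for its mouse reference, GRCm39. RSEM estimates counts, so reads of near-identical copies may have been split between genes. Sources used here do not give the annotation release or whether counting used strand. Libraries were stranded and poly(A)-selected.

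Counts were analysed in R 4.3.3 with edgeR 4.0.16 (filterByExpr, TMM factors, quasi-likelihood test, group as the 1 factor, adjustment by Benjamini-Hochberg over 11800 genes, threshold 0.05). The common coefficient of biological variation was 4.57%. SE was taken from the fold change and its F statistic, as |log2 change|/√F. CPM used TMM-adjusted library sizes. The code was tested on simulated counts. No library was a copy of another (mean chi-square within groups 1.75 to 10.7, where sampling alone gives about 1).

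The members, lists and tests were chosen with earlier results of these data known. All members are counted, with values per library by rule for the 3 called members with the largest and the 3 with the smallest log2 change, the active sites, Psmb10, Psme1 to Psme4 and members too low to test. Values per library for other members were added after these were seen. Places were taken by symbol from RefSeq (GRCm38.p6) for 93.6% of genes, and lengths and overlaps by Ensembl identifier from GENCODE vM39 (GRCm39). Older symbols matched 3 list genes, and Paaf1 was not analysed. Some genes of the partner list are not reported here. Alternatives were DESeq2 1.42.0, limma-voom (limma 3.58.1), RLE, upper-quartile or no factors, other filters, thinned libraries, leaving out each library and a replicate block.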

Additional observations from a re-analysis of the deposited data

How the results depend on the processing

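Over all 15 alternatives, 37 to 43 proteasome genes were called, 36 to 42 of them lower, and 1, Psme1, was higher in each. With single libraries left out, 37 to 40 were called and the median log2 change lay between -0.38 and -0.34. No log2 change of any of the 46 genes changed sign. Of the 690 values of single genes, 668 kept their side of the threshold, 11 lost a call and 11 gained one. Losses were in Psma6 and Psmb10, and gains in Psmb1, Psmd8, Psmf1 and Psmg4. The alternatives with library totals alone, upper-quartile factors and canonical transcripts were chosen after seeing the data. With library totals alone, the median of the 26S subunits was -0.48 in place of -0.44, all 31 were called, and the median of all genes moved to -0.04. With libraries thinned to the smallest total, 37 genes were lower, with a median of -0.36. With the replicate number as a block, 38 genes were called. Libraries with the same number did not deviate together (correlations -0.03, -0.11 and -0.06). This cannot show whether libraries with the same number were cultured or prepared together. The level per length of the highest over the lowest subunit was 16.1 by exon union, 12.7 by longest and 14.3 by canonical transcript. Psma8, Psmb8 and Psmb11 had too few reads in both groups for a comparison.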
